A study of Mus musculus with 12 samples.

Results

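The 9 adipogenic transcription factors described here are Pparg, Cebpa, Cebpb, Cebpd, Klf5, Klf15, Zfp423, Ebf1 and Ebf2, taken by their gene symbols from the 54532 mouse genes of the count table. RNA was sequenced from liver and from subcutaneous fat of male mice that had received 1 tail vein injection of an adeno-associated virus at 10 weeks of age and were then kept on a low-fat diet for 16 weeks. In the hHKDC1 OE group the virus carried full-length human HKDC1, a member of the hexokinase family, under the hepatocyte promoter of thyroxine-binding globulin. In the null group it carried that promoter alone. Each of the 4 combinations of tissue and vector had 3 libraries, 12 in all. The mouse strain, and whether a fat and a liver library with the same number came from 1 mouse, are not given in the sources used here. The label text calls replicates 2 and 3 of hHKDC1 OE knockouts in both tissues, although titles and treatment labels place them in the overexpression group, where they were kept. The transgene itself was not analysed here, so the vector labels were not checked against it.

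Adipogenesis, the conversion of a precursor cell into a lipid-storing adipocyte, runs through a known succession of these factors. Zfp423, Ebf1 and Ebf2 mark and commit the precursor. Cebpb and Cebpd are the early C/EBP proteins that hormonal signals induce, and Klf5 acts beside them. They switch on Pparg, the nuclear receptor that no adipocyte forms without, and Cebpa, which then maintain each other and the genes of the mature fat cell, while Klf15 acts late and also governs amino acid and glucose metabolism in liver. Cebpa and Cebpb are in addition major factors of the hepatocyte.

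The libraries held 15496019 to 19954971 counts on genes. CPM are counts scaled to library depth and to TMM normalization factors. The fat libraries held adipocyte markers and the liver libraries hepatocyte markers. The summed CPM of 8 adipocyte genes, among them Adipoq and Plin1, was 20670.2, 28506 and 26862 in the null fat libraries, 19033, 26847 and 23040.3 in those of hHKDC1 OE fat, and 7.81 to 29.0 in liver. The summed CPM of 10 hepatocyte genes was 113716 to 115685 in null liver and 74053 to 99467 in hHKDC1 OE liver. Of these genes 6 were lower and 4 higher in hHKDC1 OE liver, and Alb alone was at 71234 ± 3393 CPM in null and 46249 ± 7093 CPM in hHKDC1 OE liver. The fat libraries differed in other cells. The 12 B cell markers summed to 2.73 to 4.71 CPM in null fat, with 1 to 3 of them at 0 in a library, and to 1039, 59.5 and 779 CPM in hHKDC1 OE replicates 1, 2 and 3, and 8 T cell markers to 4.92 to 11.7 CPM and to 490.2, 36.0 and 555 CPM. Skeletal muscle markers ranged from 534 to 23086 CPM in null fat and from 1058 to 15617 CPM in hHKDC1 OE fat, and macrophage markers from 283 to 618 CPM and from 838 to 1396 CPM. None of these marker lists had a gene past the adjusted threshold. Replicate 2 of hHKDC1 OE fat stood apart from its group, and so did null fat replicate 3, whose muscle markers summed to 534 CPM against 19247 and 23086 in replicates 1 and 2 and whose hepatocyte markers summed to 7959 CPM against 2593 and 2730.5. The fat results are therefore given with and without each. The part of these other cells in the results was not tested, and in bulk tissue fewer cells of a type and less RNA per cell cannot be told apart.

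Compared per length, Cebpa was the most abundant of the 9 factors in both tissues. In null fat its level was 338 ± 18.9 FPKM (fragments scaled to gene length and to DESeq2 size factors of the libraries, mean ± SD, n = 3). Cebpb followed with 51.0 ± 3.00 and Pparg with 45.1 ± 3.37 FPKM, and the libraries of these neighbours overlapped. Klf15 stood at 34.2 ± 2.24 and Cebpd at 14.8 ± 3.49 FPKM, each apart from its neighbours. Ebf1 with 10.6 ± 1.20 and Zfp423 with 10.1 ± 1.34 FPKM overlapped, and below them came Ebf2 with 3.56 ± 0.648 and Klf5 with 0.377 ± 0.364 FPKM. In hHKDC1 OE fat Cebpa was again first at 286 ± 80.9 FPKM and Klf5 last at 0.133 ± 0.124 FPKM. Pparg with 45.1 ± 12.7 FPKM came next there and overlapped with Cebpb at 34.4 ± 7.94 FPKM, and Cebpb overlapped with Klf15 at 23.5 ± 6.95 FPKM. Ebf1 with 8.81 ± 2.05, Zfp423 with 5.55 ± 2.98, Cebpd with 5.50 ± 2.00 and Ebf2 with 3.27 ± 0.522 FPKM formed a run in which each overlapped with the next. Cebpd thus held the fifth place in null fat and the seventh in hHKDC1 OE fat.

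In null liver Cebpa stood at 263 ± 14.5 FPKM, Cebpb at 208 ± 26.1 and Klf15 at 125 ± 29.5 FPKM. Cebpd with 8.66 ± 0.801 and Pparg with 4.70 ± 0.827 FPKM were far lower. The other 4 factors had at most 28 counts over the 3 null liver libraries. In hHKDC1 OE liver the first places were held in the same order, with 309 ± 47.2 FPKM for Cebpa, 199 ± 43.3 for Cebpb and 92.6 ± 30.6 for Klf15. Cebpd with 6.32 ± 1.98 and Pparg with 4.27 ± 1.62 FPKM overlapped there.

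**Figure D1:**
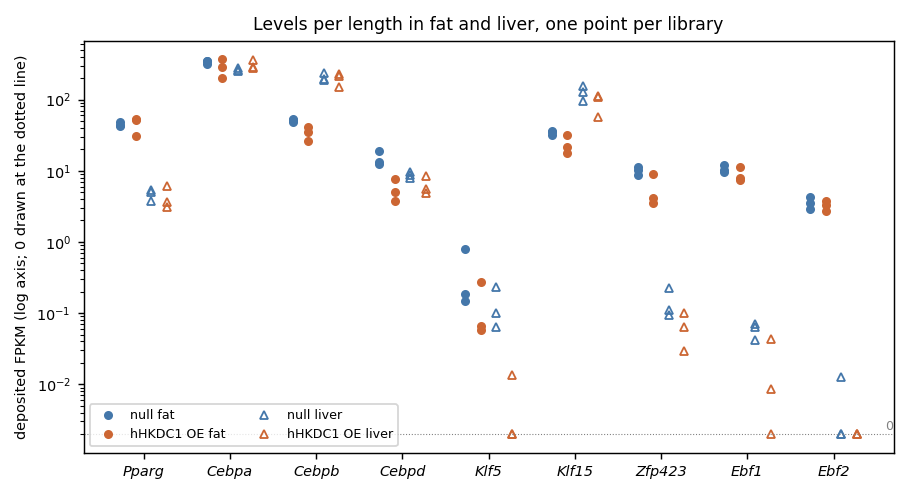
Deposited FPKM of the 9 factors on a log axis, 1 point per library, with circles for fat, triangles for liver, blue for null and orange for hHKDC1 OE; libraries at 0 are drawn on the dotted line. Cebpa was highest in all 4 groups, Cebpb and Klf15 were higher in liver, and Zfp423, Ebf1 and Ebf2 were near or at 0 in liver.

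The genes lie on the mouse assembly GRCm38 at chr6:115360951-115490399 for Pparg, chr7:35119293-35121928 for Cebpa, chr2:167688915-167690418 for Cebpb, chr16:15887286-15891031 for Cebpd, chr14:99298691-99315036 for Klf5, chr6:90462576-90475238 for Klf15, chr8:87661810-87959595 for Zfp423, chr11:44617317-45008091 for Ebf1 and chr14:67233292-67430918 for Ebf2. Zfp423 is on the minus strand and the others are on the plus strand. The libraries keep no strand, so reads on bases that 2 genes share cannot be told apart. Cebpd shares 562 of its 3746 exonic bases with Spidr and Cebpb 312 of 1504 with Tmem189. Cebpa shares 51 of 2636 with the antisense gene Gm45091, and Ebf2 424 of 6928 with the antisense gene Gm10860. The other 5 genes share no exonic base.

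RefSeq start sites on GRCm38.p6 were matched for 6 of the 9 factors, with 10 starts between them. Cebpd, Klf5 and Ebf2 had no entry in the set of promoters used here, which does not mean that they lack a RefSeq start. The 250 bases before each start were searched on both strands for TTNNGNAA, the form of a C/EBP site, which 36.8% of 32851 mouse promoters hold, for CCCNNGGG, the form of an EBF site (11.8%), and for the GC box GGGCGG that Sp and KLF proteins read (32.7%). Also searched was TTCNNNGAA, the form of a STAT site (7.02%), of which the 10 windows held no match. Shown is the 1 of the 3 Pparg starts that held C/EBP matches, because C/EBP proteins are known activators of Pparg. Also shown are the starts of Cebpb and Klf15 and the first of the 2 starts of Zfp423, the 3 matched factors whose values in fat stood lowest against null. Capitals mark matches to the C/EBP or EBF form. A match is a description of the letters and not of binding.
Pparg, chr6:115421816-115422065, plus strand: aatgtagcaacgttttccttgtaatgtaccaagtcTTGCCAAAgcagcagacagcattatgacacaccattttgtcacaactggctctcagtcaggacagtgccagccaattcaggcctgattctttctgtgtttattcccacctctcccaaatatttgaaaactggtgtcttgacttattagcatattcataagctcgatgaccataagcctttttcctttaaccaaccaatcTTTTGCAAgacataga
Cebpb, chr2:167688665-167688914, plus strand: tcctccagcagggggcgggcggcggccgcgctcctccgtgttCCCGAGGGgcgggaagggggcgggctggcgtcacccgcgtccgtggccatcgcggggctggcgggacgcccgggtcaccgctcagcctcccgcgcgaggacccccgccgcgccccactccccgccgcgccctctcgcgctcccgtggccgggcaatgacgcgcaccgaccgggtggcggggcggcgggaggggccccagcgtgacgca
Klf15, chr6:90462326-90462575, plus strand: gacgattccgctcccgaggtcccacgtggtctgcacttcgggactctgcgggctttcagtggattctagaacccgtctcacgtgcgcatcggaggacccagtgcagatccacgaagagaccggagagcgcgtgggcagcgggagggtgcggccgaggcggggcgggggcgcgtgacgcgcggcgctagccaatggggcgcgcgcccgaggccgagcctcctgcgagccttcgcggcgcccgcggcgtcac
Zfp423, chr8:87959596-87959845, minus strand: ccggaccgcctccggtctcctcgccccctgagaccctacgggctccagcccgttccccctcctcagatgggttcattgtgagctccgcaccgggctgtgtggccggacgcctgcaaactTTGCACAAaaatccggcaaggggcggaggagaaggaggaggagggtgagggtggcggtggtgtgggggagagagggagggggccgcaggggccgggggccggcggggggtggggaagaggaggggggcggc

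The Pparg window shown held 2 C/EBP matches, and the windows of the other 2 Pparg starts held none. The matches lay 215 to 208 and 16 to 9 bases before the start, in a sequence of 40.8% G and C. The Zfp423 window shown held 1 C/EBP match, 131 to 124 bases before the start, and GC boxes 111 to 106 and 7 to 2 bases before it. The window of the other Zfp423 start, chr8:87804440-87804689, held 1 C/EBP match, 1 EBF match and 1 GC box. The Cebpb window was 81.6% G and C and held 5 GC boxes, 1 of which overlapped with its EBF match. The Klf15 window held 1 GC box and none of the other forms.

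The comparison of null fat with null liver shows how far each factor belongs to fat in mice that carried no transgene. Zfp423, Ebf1, Ebf2, Pparg and Cebpd were higher in fat and Cebpb and Klf15 were higher in liver, so that 7 of the 9 factors passed the test against 64.3% of 15259 genes tested. Zfp423, Ebf1 and Ebf2 passed the count filter only through the fat libraries, where they are high, so this count is not independent of the difference. With at least 10 counts in every library 4 factors were called, beside 3663 genes higher and 3676 lower of 11473. The precursor factors differed most. Zfp423 counts were 1288, 1079 and 1564 in null fat and 6, 7 and 15 in null liver, a log2 fold change of 6.08 ± 0.29 (SE, edgeR adjusted p = 2.92e-06). Ebf1 counts were 2576, 2233 and 2294 in fat and 8, 7 and 5 in liver, a log2 fold change of 7.42 ± 0.22 (edgeR adjusted p = 1.19e-06). Ebf2 had 652, 540 and 503 counts in fat and 1 count over the 3 liver libraries, a ratio of normalized counts of 825 with a 95% counting interval of 148 to 32606 (edgeR adjusted p = 5.06e-06). None of these groups overlapped, as was the case for 37.8% of all genes in that direction.

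Pparg, at 42.6 to 48.9 FPKM in null fat and 3.76 to 5.31 FPKM in null liver, differed by a log2 fold change of 3.21 ± 0.17 (edgeR adjusted p = 4.77e-06). The C/EBP factors went different ways. Cebpb was at 47.7 to 53.4 FPKM in null fat and 189 to 237 FPKM in null liver, with a log2 fold change of -2.08 ± 0.16 (edgeR adjusted p = 2.05e-05). Cebpd was at 12.4 to 18.8 FPKM against 7.88 to 9.48 FPKM, with a log2 fold change of 0.72 ± 0.18 (edgeR adjusted p = 0.00851). Cebpa was at 316 to 351 FPKM against 250 to 278 FPKM, and its log2 fold change of 0.31 ± 0.17 did not pass (edgeR adjusted p = 0.156). It passed with DESeq2 at 0.35 (adjusted p = 0.0413), with upper-quartile normalization at 0.47, and with null fat replicate 3 left out. Klf15, at 31.8 to 36.3 FPKM in null fat and 95.1 to 154 FPKM in null liver, had a log2 fold change of -1.92 ± 0.20 (edgeR adjusted p = 8.94e-05). Klf5 had 92, 17 and 24 counts in null fat but also 14, 6 and 4 in null liver. It gave 1.44 ± 0.81 (edgeR adjusted p = 0.152), and its groups overlapped. Scaling by library size alone moved the median log2 fold change of all genes from 0.09 to 0.98 and the calls from 5163 higher and 4647 lower to 9012 higher and 2286 lower. All 9 factors passed under that scaling, and the directions of the 7 called factors stayed as given.

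Between hHKDC1 OE fat and hHKDC1 OE liver, 6 of 8 factors tested passed, against 56.7% of 15817 genes. Zfp423, Ebf1 and Ebf2 again passed the count filter only through the fat libraries. With at least 10 counts in every library 3 factors were called, beside 3210 genes higher and 3053 lower of 11719. In the fit with 8 factors tested the log2 fold changes were 3.34 ± 0.34 for Pparg, 6.32 ± 0.56 for Zfp423 and 8.86 ± 0.59 for Ebf1. They were -2.58 ± 0.27 for Cebpb and -2.03 ± 0.33 for Klf15, and the edgeR adjusted p of these 5 factors were 1.90e-05 to 0.00129. Ebf2 had 1823 counts in the fat libraries and 0 in the liver libraries, which makes it at least 292-fold higher in fat when 3 counts over the liver group are taken as the floor. Cebpd, at 3.78 to 7.70 FPKM in fat and 4.79 to 8.56 FPKM in liver, had a log2 fold change of -0.26 ± 0.32 (edgeR adjusted p = 0.527), and its groups overlapped. Cebpa had -0.17 ± 0.29 (edgeR adjusted p = 0.656). Library size alone turned both of these directions, to 0.72 for Cebpd and 0.84 for Cebpa, the latter past the threshold, while the median of all genes moved from 0.12 to 1.11 and the calls from 4931 higher and 4030 lower to 9679 higher and 1943 lower. Klf5 was not tested in this comparison because of its low counts.

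Whether expression of human HKDC1 in hepatocytes goes with a change of these factors in subcutaneous fat is the question of the next comparison. Of the 9 factors, 8 had lower values in hHKDC1 OE fat and Pparg a marginally higher one that turned to -0.04 with limma, and their median log2 fold change was -0.50 beside -0.05 over all 16380 genes tested. None of the 9 passed the edgeR test at an adjusted p under 0.05, and neither did any other gene (0% of 16380). The smallest adjusted p of all genes was 0.133. At an unadjusted p under 0.05, Cebpb, Cebpd, Klf15 and Zfp423 were lower, 4 of 9 factors where 6.39% of all genes were lower. The libraries of the groups did not overlap for Cebpb, Cebpd and Klf15, 3 of 9 factors where 10.2% of all genes lay apart in that direction. DESeq2 called Cebpd alone of the 9, with 188 genes lower (0.631%) and 1243 higher of 29813.

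**Figure D2:**
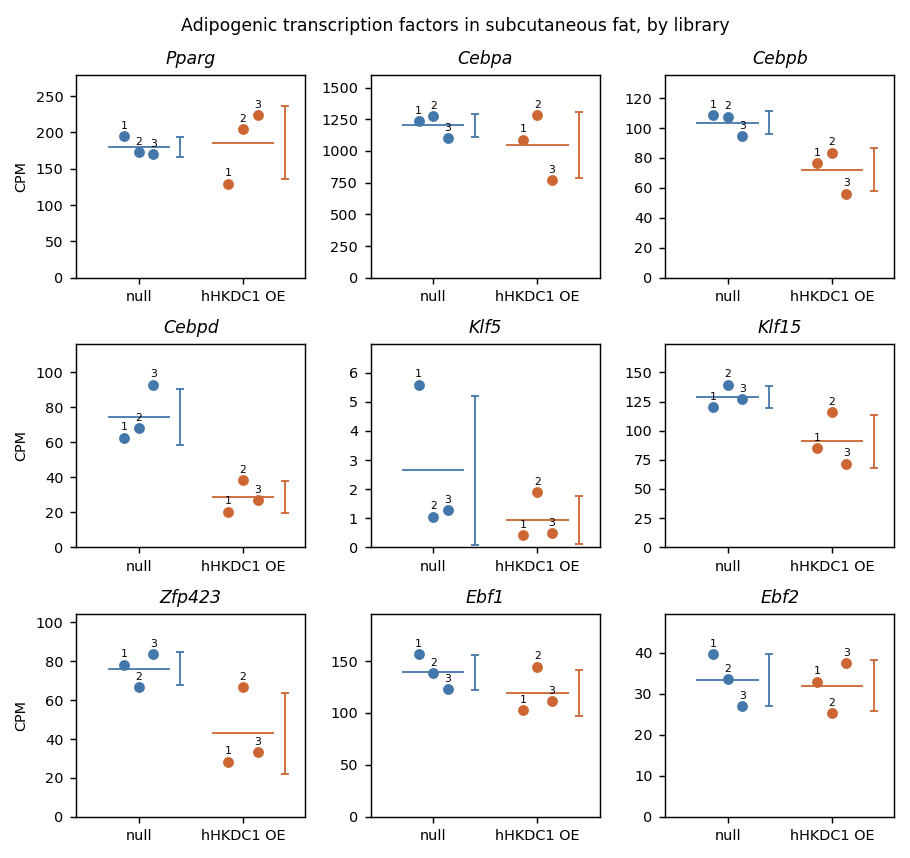
CPM of each factor in the 6 fat libraries, with the replicate number beside each point, a line at the group mean and a bar of 1 SD on either side of the mean; every axis starts at 0. Cebpd lay lower in all 3 hHKDC1 OE libraries (20.4 to 38.4 CPM) than in the null libraries (62.7 to 93.0 CPM), and replicate 2 of hHKDC1 OE stood nearest to null for Cebpb, Cebpd, Klf15 and Zfp423.

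Of the early C/EBP factors, Cebpd was at 62.7, 68.3 and 93.0 CPM in null fat and at 20.4, 38.4 and 27.0 CPM in hHKDC1 OE fat. All 3 hHKDC1 OE libraries lay below all 3 null libraries, and the group mean was 38.3% of null, a log2 fold change of -1.39 ± 0.27 (edgeR adjusted p = 0.133). Cebpb was at 109, 108 and 94.6 CPM in null fat and at 76.7, 83.6 and 56.1 CPM in hHKDC1 OE fat. Its groups did not overlap either, and the mean was 69.6% of null, a log2 fold change of -0.52 ± 0.18 (edgeR adjusted p = 0.214).

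Of the factors of the mature adipocyte, Pparg was at 195, 173 and 171 CPM in null fat and at 129.6, 205 and 224 CPM in hHKDC1 OE fat. Both the lowest and the highest values came from hHKDC1 OE, and the log2 fold change was 0.05 ± 0.22 (edgeR adjusted p = 0.918). Cebpa was at 1235, 1275 and 1101 CPM in null fat and at 1090.4, 1282 and 771 CPM in hHKDC1 OE fat. The groups overlapped, and its log2 fold change was -0.20 ± 0.25 (edgeR adjusted p = 0.681), which was -0.019 without hHKDC1 OE replicate 3 and -0.38 without replicate 2.

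Klf15 was at 120.0, 139 and 127 CPM in null fat and at 85.4, 116 and 71.8 CPM in hHKDC1 OE fat. Its groups were apart by the narrow step from 116 to 120.0 CPM, with a log2 fold change of -0.50 ± 0.20 (edgeR adjusted p = 0.260). Klf15 and Cebpb are also expressed in hepatocytes, and all 10 hepatocyte markers were lower in hHKDC1 OE fat, with sums of 796 to 2196 CPM against 2593 to 7959 CPM in null fat. None of these markers passed, and their part in the Klf15 and Cebpb values was not tested. Klf5 rested on few reads. Null fat held 92, 17 and 24 Klf5 counts, and hHKDC1 OE fat held 9, 39 and 8. Its log2 fold change of -1.47 ± 0.88 (edgeR adjusted p = 0.405) depended on null replicate 1, without which it was -0.32. Klf5 is also a gene of surface epithelium, and the 8 skin epithelium markers summed to 288, 21.1 and 117 CPM in null fat and to 4.55, 26.8 and 6.02 CPM in hHKDC1 OE fat, where 5, 1 and 5 of them were at 0. The highest library was the same for Klf5 and for these markers in each group, and the markers' part in the Klf5 values was not tested.

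Of the precursor factors, Zfp423 was at 78.3, 66.9 and 83.7 CPM in null fat and at 28.4, 66.9 and 33.4 CPM in hHKDC1 OE fat. Replicates 1 and 3 of hHKDC1 OE lay below null and replicate 2 was level with null replicate 2, and the log2 fold change was -0.83 ± 0.32 (edgeR adjusted p = 0.255). Ebf1 was at 157, 138 and 123 CPM in null fat and at 103, 145 and 112 CPM in hHKDC1 OE fat, a log2 fold change of -0.22 ± 0.18 (edgeR adjusted p = 0.534) that was -0.12 without hHKDC1 OE replicate 1. Ebf1 is a factor of B cells too, and the hHKDC1 OE libraries with the higher B cell sums, replicates 1 and 3 with 1039 and 779 CPM, had the lower Ebf1 values; the part of these cells was not tested. Ebf2 was at 39.6, 33.5 and 26.9 CPM in null fat and at 33.0, 25.2 and 37.6 CPM in hHKDC1 OE fat, and its log2 fold change of -0.06 ± 0.22 (edgeR adjusted p = 0.889) turned to 0.10 with library size alone. The 8 markers of adipocyte precursors were split, with 4 higher and 4 lower in hHKDC1 OE fat and none past the adjusted threshold. They summed to 634, 364 and 438 CPM in null fat and to 373, 535 and 524 CPM in hHKDC1 OE fat, and the sums overlapped.

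With replicate 2 of hHKDC1 OE fat left out, 4 of the 9 factors passed the edgeR test, all of them lower, where 7.53% of 17190 genes were called lower and 11.4% higher. Cebpd then had a log2 fold change of -1.67 (adjusted p = 0.00502) and Zfp423 of -1.31 (adjusted p = 0.00328). Klf15 had -0.72 (adjusted p = 0.0194) and Cebpb -0.65 (adjusted p = 0.0468). The other 5 did not pass, with -2.52 for Klf5, -0.38 for Cebpa, -0.39 for Ebf1, 0.070 for Ebf2 and -0.035 for Pparg. Leaving out any other fat library left the count at 0. Without null fat replicate 3, which had the highest Cebpd value, the log2 fold change of Cebpd was -1.21 (edgeR adjusted p = 0.206). The other values without that library were -0.60 for Cebpb, -0.52 for Klf15, -0.76 for Zfp423, -1.81 for Klf5, -0.27 for Cebpa, -0.32 for Ebf1, -0.22 for Ebf2 and -0.0037 for Pparg, with edgeR adjusted p of 0.267 to 0.996. Cebpd passed in further settings with all 6 libraries. With the libraries scaled to the adipocyte markers in place of all genes, its log2 fold change was -1.28 (edgeR adjusted p = 0.0405), where 0.14% of genes were called lower. Of these 8 markers 6 were lower and 2 higher in hHKDC1 OE fat. All of them are also among the 20 adipocyte genes described below, so that list is not separate from this scaling. With DESeq2 the log2 fold change of Cebpd was -1.36 (adjusted p = 0.000966). When the 2 libraries whose description reads knockout were left out, which leaves 1 hHKDC1 OE library whose spread is taken from the null libraries, Cebpd had -1.88 (edgeR adjusted p = 0.0297) and Zfp423 -1.44 (edgeR adjusted p = 0.0260), with 1.24% of 18343 genes called lower.

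**Figure D3:**
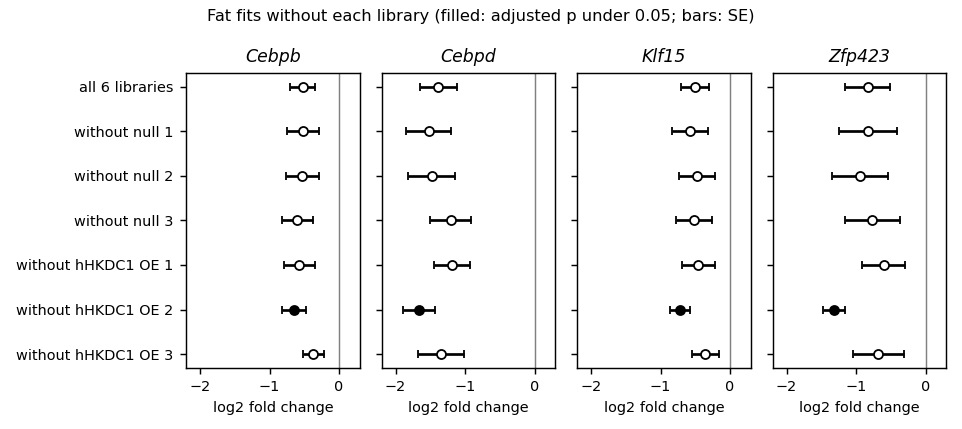
Log2 fold change of hHKDC1 OE over null fat (x axis) with its SE for the fit on all 6 libraries and for the fits without each library in turn (y axis). Filled points mark an adjusted p under 0.05. The values of Cebpb, Cebpd, Klf15 and Zfp423 were below 0 in all 7 fits, and each passed only without hHKDC1 OE replicate 2.

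The make-up of the C/EBP members within a library does not depend on how libraries are scaled to each other. Of the summed FPKM of Cebpa, Cebpb and Cebpd, Cebpd made up 3.00% to 4.91% in null fat and 1.16% to 2.14% in hHKDC1 OE fat. Cebpb made up 12.5% to 13.0% and 10.1% to 11.1%. The share of Cebpa was correspondingly larger, at 82.6% to 84.3% in null fat and 86.8% to 88.1% in hHKDC1 OE fat. In fat the groups did not overlap for any of the 3 shares, which sum to the whole and are not independent of each other or of the values above. In liver Cebpa made up 50.4% to 58.4% in null and 53.5% to 65.2% in hHKDC1 OE, and Cebpb 39.6% to 47.9% and 33.7% to 44.9%. Cebpd made up 1.69% to 1.99% in null liver and 0.960% to 1.66% in hHKDC1 OE liver, and its groups did not overlap there either. Of the summed FPKM of Ebf1 and Ebf2 in fat, Ebf1 made up 73.7% to 76.4% in null and 67.9% to 80.3% in hHKDC1 OE.

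**Figure D4:**
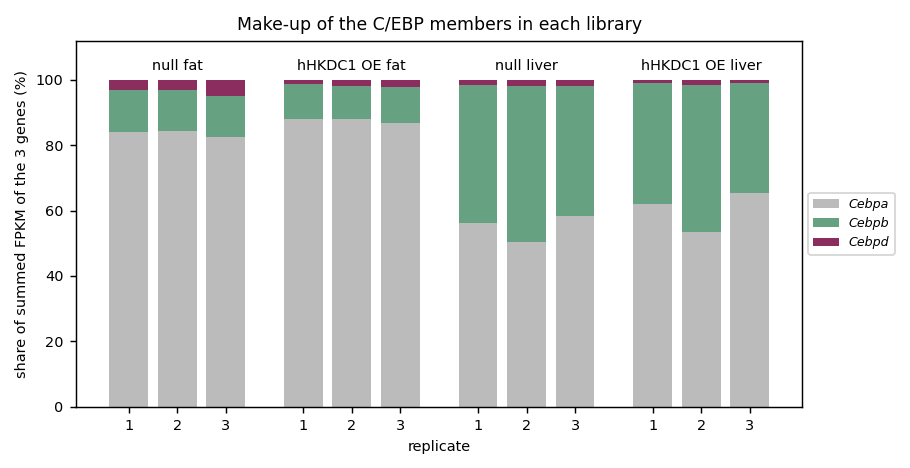
Share of Cebpa, Cebpb and Cebpd in their summed FPKM (y axis, percent) in each of the 12 libraries (x axis, replicate number within group). Cebpd took 3.00% to 4.91% in null fat and 1.16% to 2.14% in hHKDC1 OE fat, and Cebpb took at least 33.7% in each liver library.

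In liver, where the transgene is placed, 5 of the 9 factors had enough counts to be tested and none passed the edgeR test. No other gene passed (0% of 13351), and DESeq2 called none of the 9. At an unadjusted p under 0.05 none of the 5 was called, against 6.94% of all genes. The hepatocyte sums were lower in hHKDC1 OE liver, although 4 of the 10 hepatocyte markers were higher. All 6 endothelium markers were lower, with sums of 61.4 to 99.5 CPM in null and 37.1 to 66.6 CPM in hHKDC1 OE liver. All 5 Kupffer cell markers were higher, with sums of 81.1 to 149.7 CPM and 148 to 320.3 CPM. None of these markers passed the adjusted threshold, and their part in the liver values was not tested. Cebpa was at 491, 486 and 549 CPM in null liver and at 706, 554 and 571 CPM in hHKDC1 OE liver. It was the 1 factor of the 5 whose groups did not overlap, where 6.31% of genes lay apart in the higher direction, and its log2 fold change was 0.26 ± 0.16 (edgeR adjusted p = 0.820), or 0.14 without hHKDC1 OE replicate 1. Cebpb was at 211, 264 and 212 CPM in null and at 239, 265 and 168 CPM in hHKDC1 OE liver, with a log2 fold change of -0.03 ± 0.20 (edgeR adjusted p = 0.986) that turned to 0.03 with library size alone. Cebpd was at 21.1, 23.8 and 26.5 CPM in null and at 15.5, 24.5 and 13.4 CPM in hHKDC1 OE liver. Replicates 1 and 3 of hHKDC1 OE were below all null libraries and replicate 2 was not, and the log2 fold change was -0.42 ± 0.23 (edgeR adjusted p = 0.788). It was -0.72 without hHKDC1 OE replicate 2 and -0.25 without replicate 3.

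Klf15 was at 307, 259 and 198 CPM in null liver and at 228, 234 and 119.8 CPM in hHKDC1 OE liver, a log2 fold change of -0.40 ± 0.27 (edgeR adjusted p = 0.830). Leaving out 1 library moved it between -0.14, without hHKDC1 OE replicate 3, and -0.55, without hHKDC1 OE replicate 2. Klf15 was lower in hHKDC1 OE than in null for each replicate number, although the groups overlapped and no pairing of the libraries is given. With the replicate number as a block the log2 fold change of Klf15 was -0.44 ± 0.17 (edgeR adjusted p = 0.532). Pparg was at 10.6, 8.21 and 11.7 CPM in null and at 7.99, 6.86 and 13.5 CPM in hHKDC1 OE liver, with overlapping groups and a log2 fold change of -0.11 ± 0.27 (edgeR adjusted p = 0.974). The 4 factors below the count filter were Klf5, Zfp423, Ebf1 and Ebf2. Klf5 had 14, 6 and 4 counts in null liver and 0, 0 and 1 in hHKDC1 OE liver. The ratio of null to hHKDC1 OE was 27.1 with a counting interval of 4.42 to 1114, and in an edgeR fit without the filter its adjusted p was 0.221. Zfp423 had 6, 7 and 15 counts in null and 2, 8 and 5 in hHKDC1 OE liver, and Ebf1 had 8, 7 and 5 and then 1, 6 and 0. Ebf2 had 1 count in the 6 liver libraries.

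**Figure D5:**
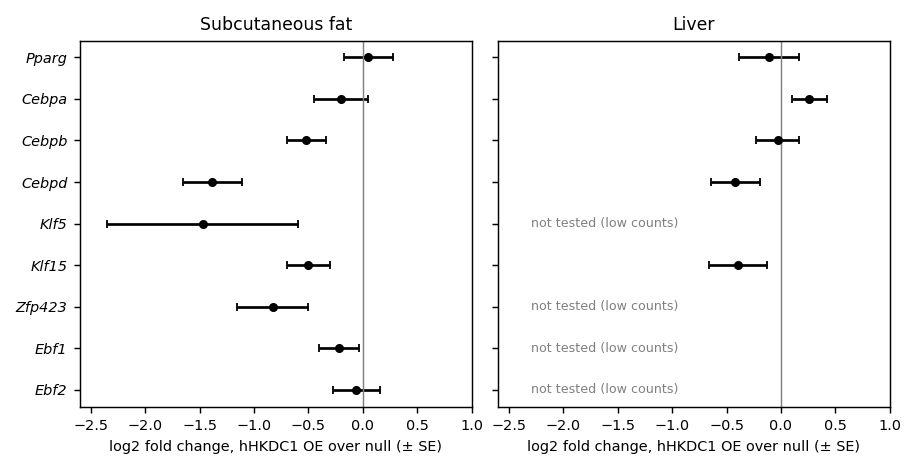
Log2 fold change of hHKDC1 OE over null with its SE (x axis) for each factor (y axis) in subcutaneous fat and in liver. In fat the values ran from -1.47 for Klf5 to 0.05 for Pparg, and in liver from -0.42 for Cebpd to 0.26 for Cebpa; none had an adjusted p under 0.05, and 4 factors were not tested in liver.

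An interaction term over all 12 libraries tested whether the effects in fat and in liver differed. None of the 9 factors passed the edgeR test, nor did any of the 17070 genes tested (0%). At an unadjusted p under 0.05, Cebpd alone of the 9 was lower, where 3.67% of genes were. Its effect in fat was lower than in liver by 0.89 ± 0.37 on the log2 scale (edgeR adjusted p = 0.343). Without replicate 2 of hHKDC1 OE fat the Cebpd difference was -1.37 (edgeR adjusted p = 0.0403), with 511 genes lower (2.86%) and 700 higher of 17875. The difference was -0.41 ± 0.29 for Cebpb, -0.38 ± 0.31 for Cebpa, 0.23 ± 0.37 for Pparg and -0.02 ± 0.38 for Klf15. The values of Klf5, Zfp423, Ebf1 and Ebf2 rest on liver counts of 15 or fewer per library and changed direction between edgeR and limma on log2(FPKM + 1).

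The genes that these factors act with were described from 6 lists. In fat none of their genes passed the edgeR test. Of 20 adipocyte genes that Pparg and the C/EBP factors are known to activate, 18 had lower and 2 higher values in hHKDC1 OE fat. The median of their log2 fold changes was -0.33, with a range of -0.94 to 0.17, and 1 gene was lower at an unadjusted p under 0.05, where 6.39% of all genes were. The groups did not overlap for 5 of the 20, all lower, where 10.2% of all genes lay apart in that direction. The largest differences were those of Lep, the hormone leptin, at 2103 ± 500 CPM in null and 1093 ± 1317 CPM in hHKDC1 OE fat, and of Lpl, the lipase that frees fatty acids from lipoproteins, at 12157 ± 1356 and 7096 ± 3136 CPM. Their edgeR adjusted p were 0.552 and 0.362. Of 15 partners and coregulators, 9 were lower and 6 higher, with a median of -0.14. Rxra, which binds DNA together with Pparg, had a log2 fold change of -0.43 ± 0.18 (edgeR adjusted p = 0.277), and the corepressor Nrip1 had -0.85 ± 0.29 (edgeR adjusted p = 0.215).

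Of 13 other factors that promote adipogenesis, 10 were lower and 3 higher in fat, with a median of -0.13. Klf9 had a log2 fold change of -0.76 ± 0.24 (edgeR adjusted p = 0.188) and Nfib of -0.56 ± 0.21 (edgeR adjusted p = 0.243). Of 17 factors that restrain it, 10 were higher and 7 lower, with a median of 0.06. The largest differences in that list were lower values, with -1.22 ± 1.02 for the ligand Wnt10b (edgeR adjusted p = 0.539) and -1.17 ± 0.29 for Tsc22d3, a glucocorticoid-induced gene (edgeR adjusted p = 0.136). Wnt10b was low, at 2.77 ± 1.97 CPM in null and 1.18 ± 1.56 CPM in hHKDC1 OE fat, and its groups overlapped. All 5 relatives tested were lower, with a median of -0.14, and the largest values were -0.73 ± 0.52 for Ebf4 and -0.31 ± 0.30 for Ppara (edgeR adjusted p 0.474 and 0.592). Ebf4 was low, at 0.997 ± 0.399 CPM in null and 0.596 ± 0.110 CPM in hHKDC1 OE fat, and its groups overlapped. Cebpb, Cebpd and Klf15 respond to glucocorticoids and cytokines, and of 12 genes of such responses 10 were lower and 2 higher, with a median of -0.49. Tat, a glucocorticoid-induced enzyme of tyrosine breakdown that is typical of hepatocytes, had a log2 fold change of -2.22 ± 0.70 (edgeR adjusted p = 0.186). Hepatocyte markers summed to 2593, 2730.5 and 7959 CPM in null fat and 2196, 796 and 1207 CPM in hHKDC1 OE fat, and their part in the Tat value was not tested. Socs3, a feedback inhibitor that cytokines induce, had 1.86 ± 0.51 (edgeR adjusted p = 0.148).

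In liver none of the genes of these lists passed either. The adipocyte genes had 4 higher and 10 lower of 14 tested with a median of -0.36, led by Fabp4, a fatty acid carrier, at -0.92 ± 0.35 (edgeR adjusted p = 0.631), and Plin4, a lipid droplet coat protein, at -0.72 ± 0.89 (edgeR adjusted p = 0.914). The partners had 10 higher and 4 lower of 14 with a median of 0.08, and the largest values were 0.66 ± 0.28 for Ppargc1b and 0.48 ± 0.21 for Tle3 (edgeR adjusted p 0.690 and 0.716). The other promoting factors had 6 higher and 6 lower, with -1.61 ± 0.66 for Klf4 and 0.39 ± 0.16 for Zfp467 (edgeR adjusted p 0.664 and 0.665). The restraining factors had 4 higher and 8 lower with a median of -0.07, and the largest values were -1.24 ± 0.26 for Klf2 (edgeR adjusted p = 0.355) and -1.10 ± 0.32 for Tsc22d3 (edgeR adjusted p = 0.520). The relatives had 3 higher and 1 lower with a median of 0.08, with 0.42 ± 0.23 for Cebpe and -0.40 ± 0.15 for Ppara (edgeR adjusted p 0.788 and 0.618). The hormone and cytokine response genes had 6 in each direction, and the immediate early genes Nr4a1 and Fos had 3.65 ± 1.18 and 2.49 ± 0.78 (edgeR adjusted p 0.586 and 0.554) with overlapping groups.

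For each factor the most alike patterns over the 12 libraries were sought among 17070 genes by the mean absolute difference of log2 CPM after each gene was centred on its own mean. The distance combines the step between the tissues with the spread among libraries. Cebpa lay nearest to Trmt44 (0.0872) and Mosmo (0.116), and Pparg to Cables1 (0.136) and Angptl2 (0.165). Cebpb and Klf15, both higher in liver, shared the neighbour Furin at 0.163 and 0.200, beside Selenoo at 0.161 for Cebpb and Osbpl1a at 0.204 for Klf15. Ebf2 lay nearest to Meox2 (0.179), and Zfp423 to Mcam (0.212) and Hspa12a (0.284). Cebpd lay nearest to Mertk (0.274) and Bbs7 (0.295), and Ebf1 to Scn7a (0.313) and Kcnk3 (0.367). The distances of Klf5 were the longest of the 9, with 0.460 to Pgm5 and 0.595 to Slc19a3.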

How the data were processed

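Per the labels and the study's methods, the authors prepared non-strand-specific paired-end libraries, mapped the reads with STAR (2.5 in the submitters' processing notes) and counted them per gene with HTSeq 0.6.1. The methods name a human reference, whereas the deposited table holds mouse genes: 99.8% of its identifiers are in GENCODE M21 and 98.1% have the same GRCm38 position there. The deposited values are raw counts and FPKM, which the authors computed from them, and 100% of 252371 FPKM values above 0 came within 1% of counts over gene length and DESeq2 size factors of the 12 libraries. The authors' table of log2 fold changes and p-values for fat was not used.

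The counts were fitted per tissue, and for each pair of tissues, with edgeR 4.0.16 in R 4.3.3 (quasi-likelihood, TMM, filterByExpr, Benjamini-Hochberg over all genes tested). CPM are TMM-normalized over the 6 libraries of a tissue. The SE is the log2 fold change over the square root of F. FPKM were used only for levels between genes, for the range of a factor in each tissue, for shares and for limma 3.58.1. Limma was run on log2(FPKM + 1) and log2(FPKM + 0.1), with a mean FPKM of at least 0.1. Alternatives were DESeq2 1.42.0, library size alone or upper-quartile normalization, the 12 libraries in 1 fit, no filter, a minimum of 10 counts in every library, adipocyte marker scaling, a replicate block, each library left out, and the libraries described as knockouts left out. Counting intervals are exact for 2 Poisson counts and, like the floor of 3 counts, cover counting error only.

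The study states 3 mice per group for fat; where libraries are not from separate mice, p-values measure only the spread between samples. Chi-square per gene between replicates was 14.2 to 111, so no library was counted again. Deviations from the group mean in same-numbered null and hHKDC1 OE liver libraries had r of 0.231, 0.191 and 0.116 over genes. In fat r was 0.03, -0.14 and 0.04, and between null fat and null liver 0.272, 0.041 and 0.145. No pairing is given in the sources used here, and these values do not establish one. A block on the replicate number changed no call of a factor. The members, lists and tests were chosen with earlier results of these data known. All 9 factors are named, and of each list the 3 smallest adjusted p past the threshold or else, as here, the 2 largest log2 fold changes. For each factor the 2 genes most alike in pattern were sought, and a single such gene is not reported here. Ddit3 is carried by 2 gene identifiers, of which 1 was used. On simulated counts with 200 genes set to a log2 fold change of 2, edgeR recovered 93% in fat (16659 genes), 91.5% in liver (13396) and 49.5% for the interaction (17109). The simulation gave every gene the same dispersion and set no library apart, and its change was larger than that of any factor in fat. These shares therefore do not measure the power to detect the changes of the 9 factors.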

Additional observations from a re-analysis of the deposited data

How the results depend on the processing

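Of the log2 fold changes of the 9 factors recomputed under every alternative, 611 kept direction and side of the threshold, 38 changed direction, of which 1 (Cebpa between the hHKDC1 OE tissues with library size alone) also passed the threshold, and 16 passed it in the same direction only under the alternative. The cause was not tested. In fat, the number of factors called was 0 with all libraries as reported, 1 (Cebpd) with DESeq2, with no filter, with the 12 libraries in 1 fit and with adipocyte marker scaling, 2 without the libraries described as knockouts, and 0 to 4 with each library left out. For the difference between tissues it was 0 to 1 with each library left out. With at least 10 counts in every library it was 4 in place of 7 for null fat against null liver and 3 in place of 6 for hHKDC1 OE. That minimum removes factors with few counts in liver.

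Direction changed in fat for Pparg (-0.038 and -0.040 with limma at the larger and the smaller pseudocount, -0.48 without the libraries described as knockouts, -0.10 to 0.25 with each library left out) and Ebf2 (0.10 with library size alone, 0.072 with adipocyte scaling, -0.22 to 0.070). In liver it changed for Cebpb (0.030 with library size alone, 0.062 without the libraries described as knockouts, -0.17 to 0.14) and Pparg (-0.46 to 0.080). For the difference between tissues, limma on log2(FPKM + 1) gave -0.085 for Klf5, -0.75 for Zfp423, -0.19 for Ebf1 and -0.085 for Ebf2, and on log2(FPKM + 0.1) -0.43 for Zfp423 and -0.057 for Ebf2. Pparg was -0.053 without the libraries described as knockouts. With each library left out the ranges were -0.055 to 0.59 for Pparg, -0.44 to 0.13 for Klf15, -0.37 to 0.76 for Zfp423 and -0.0086 to 2.94 for Ebf2. Between hHKDC1 OE fat and liver, Cebpa was 0.042 with upper-quartile normalization, 0.84 with library size alone and -0.39 to 0.033, and Cebpd 0.72 with library size alone and -0.59 to 0.031. The fit of these tissues without the libraries described as knockouts was not run, since it leaves 1 library against 1.

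Over all genes, edgeR called 0 as reported in fat, in liver and for the difference between tissues. In fat the calls higher and lower were 1243 and 188 with DESeq2, 723 and 80 with no filter, 770 and 106 in 1 fit, 351 and 23 with adipocyte scaling, and 796 and 228 without the libraries described as knockouts. In liver they were 44 and 47, 180 and 147, 0 and 0, and 50 and 26 in the same order without the adipocyte scaling, and 77 and 69 without hHKDC1 OE replicate 2. For the difference they were 406 and 91 with DESeq2, 426 and 53 with no filter and 104 and 22 without the libraries described as knockouts. With the replicate number as a block, 159 and 9 genes were called in fat and 13 and 4 in liver, and the factors called remained 0, 0, 0, 7 and 6 in number over the 5 comparisons. Low counts limit the values of Klf5 in both tissues and of Zfp423, Ebf1 and Ebf2 in liver.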
